A study of Mus musculus with 4 samples.

Results

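Among the T cells of 2 MC38 tumour libraries, 70 of 659 cells with an alpha chain carried a CDR3 alpha whose amino acid string was written by 2 or more nucleotide sequences. These cells were selected by the CDR3 sequences alone. Over all alpha chains of both libraries together, every amino acid string found with at least 2 different nucleotide strings was taken, and every cell with such a chain became a member. The rule found 15 of 427 strings, here called convergent and numbered 1 to 15, and they were written by 38 nucleotide sequences. The member cells were 41 of 359 cells with an alpha chain in the WT library (11.4%, exact 95% interval 8.32 to 15.2) and 29 of 300 in the p53 KO library (9.67%, 6.57 to 13.6), and the intervals overlap. Since nucleotide and amino acid sequences chose the members, several of their traits are given as description. These are their number, their sharing between libraries, their lengths, their V and J genes and their junction bases.

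MC38 is a colon carcinoma cell line of C57BL/6 mice. The study put WT MC38 cells, or MC38 cells in which p53 was knocked out with CRISPR-Cas9, into C57BL/6J mice, and both groups received anti-PD-1, an antibody against an inhibitory receptor on T cells. Both libraries are T cell receptor (TCR) libraries of whole tumours on the 10x 5′ platform, 1 for each genotype, and the gene expression libraries of the same tumours were not analysed here. Receptor chains hold no reading of p53, so the knockout could not be checked in them. How many mice stand behind a library, their age, and whether the knockout line is 1 clone are not given in the sources used here. No library without anti-PD-1 was analysed here. With 1 library per genotype no test was made. All intervals are exact 95% intervals (Clopper-Pearson), which take in only the error of counting. Cells of 1 clone are not independent, so the intervals are too narrow for shares of cells. The WT library held 393 alpha contigs with 2224 unique molecular identifiers (UMIs, tags that mark single RNA molecules) and the p53 KO library 336 with 1501, where a contig is 1 assembled receptor chain. The libraries shared 0 cell barcodes. Whether a member cell was a CD4 or CD8 T cell cannot be told from receptor chains.

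The alpha chain of a T cell receptor is made by joining 1 of many V gene segments to 1 of many J segments. Bases are trimmed from the ends and other bases are added at random, and the junction lies in the CDR3, the loop that sits over the bound peptide. Most amino acids have several codons, so separate joins can arrive at the same protein from different DNA, which is called convergent recombination. A clone that divides behaves differently, as all of its cells keep the same DNA sequence. The mouse alpha locus on chromosome 14 also holds several copies of a large block of V genes, marked D or N in gene names, so near-identical V genes can give the same start to a CDR3.

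The nucleotide sequences are shown first because the choice of members rests on them. They are given for the strings with 3 or more sequences and for those found in both libraries. Each is the CDR3 as deposited, 5′ to 3′, with its V gene, library and number of cells, and capitals mark the bases at which the sequences of that string differ. String 1, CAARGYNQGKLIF with TRAJ23, had the most sequences, 3 from each library.
TRAV14-2, p53 KO, 1 cell: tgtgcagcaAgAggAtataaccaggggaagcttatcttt
TRAV14D-2, p53 KO, 1 cell: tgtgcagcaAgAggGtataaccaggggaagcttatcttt
TRAV7D-2, WT, 1 cell: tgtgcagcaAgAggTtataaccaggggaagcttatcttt
TRAV7D-2, p53 KO, 2 cells: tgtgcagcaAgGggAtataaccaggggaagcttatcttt
TRAV7D-2, WT, 1 cell: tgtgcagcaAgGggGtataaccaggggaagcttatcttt
TRAV14N-3, WT, 5 cells: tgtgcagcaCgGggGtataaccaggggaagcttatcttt

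String 2 is the CDR3 of invariant natural killer T (NKT) cells, a lineage that recognises lipids through TRAV11 joined to TRAJ18. Its 4 sequences differed at 1 base, the last of the fourth codon, where all 4 bases were found.
TRAV11, p53 KO, 2 cells: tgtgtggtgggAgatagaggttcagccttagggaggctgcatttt
TRAV11, p53 KO, 2 cells: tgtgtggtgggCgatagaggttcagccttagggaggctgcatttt
TRAV11, p53 KO, 1 cell: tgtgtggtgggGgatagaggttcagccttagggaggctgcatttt
TRAV11, p53 KO, 1 cell: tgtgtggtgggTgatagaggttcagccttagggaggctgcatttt

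String 3 was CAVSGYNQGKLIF with TRAJ23, written in 3 ways.
TRAV3D-3, p53 KO, 5 cells: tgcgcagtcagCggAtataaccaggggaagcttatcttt
TRAV3-3, WT, 1 cell: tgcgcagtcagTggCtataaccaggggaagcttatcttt
TRAV3-3, p53 KO, 2 cells: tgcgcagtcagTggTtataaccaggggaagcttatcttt

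String 4, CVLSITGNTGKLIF with TRAJ37, was written in 3 ways within the WT library.
TRAV9D-2, WT, 2 cells: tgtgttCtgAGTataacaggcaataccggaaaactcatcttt
TRAV9-2, WT, 2 cells: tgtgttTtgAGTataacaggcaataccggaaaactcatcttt
TRAV9-2, WT, 2 cells: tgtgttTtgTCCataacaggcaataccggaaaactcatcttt

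The remaining strings found in both libraries had 2 sequences, 1 in each library. They were string 6 (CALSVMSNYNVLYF, TRAJ21), string 8 (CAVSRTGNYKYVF, TRAJ40), string 9 (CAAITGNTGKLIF, TRAJ37), string 10 (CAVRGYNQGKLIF, TRAJ23), string 11 (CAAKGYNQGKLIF, TRAJ23), string 13 (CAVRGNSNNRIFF, TRAJ31), string 14 (TRAV3D-3 with TRAJ5) and string 15 (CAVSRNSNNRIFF, TRAJ31). They are printed in this order, the pair of each string together.
TRAV12D-2, WT, 4 cells: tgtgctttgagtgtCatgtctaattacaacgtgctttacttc
TRAV12D-2, p53 KO, 1 cell: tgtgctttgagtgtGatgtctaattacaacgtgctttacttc
TRAV7-3, p53 KO, 3 cells: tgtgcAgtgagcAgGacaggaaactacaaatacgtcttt
TRAV9-4, WT, 1 cell: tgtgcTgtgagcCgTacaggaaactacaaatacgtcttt
TRAV5-4, p53 KO, 2 cells: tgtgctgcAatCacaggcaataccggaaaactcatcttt
TRAV4-3, WT, 1 cell: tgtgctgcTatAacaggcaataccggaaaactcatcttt
TRAV3D-3, WT, 1 cell: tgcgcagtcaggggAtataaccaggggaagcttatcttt
TRAV3-1, p53 KO, 2 cells: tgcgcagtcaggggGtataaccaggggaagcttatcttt
TRAV14-1, WT, 1 cell: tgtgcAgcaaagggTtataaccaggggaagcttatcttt
TRAV5D-4, p53 KO, 1 cell: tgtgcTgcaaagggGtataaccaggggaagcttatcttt
TRAV3-3, WT, 1 cell: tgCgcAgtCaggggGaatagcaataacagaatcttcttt
TRAV9D-1, p53 KO, 1 cell: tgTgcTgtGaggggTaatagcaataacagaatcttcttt
TRAV3D-3, WT, 1 cell: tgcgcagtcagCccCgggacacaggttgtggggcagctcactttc
TRAV3D-3, p53 KO, 1 cell: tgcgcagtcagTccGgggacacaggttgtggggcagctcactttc
TRAV7-6, WT, 1 cell: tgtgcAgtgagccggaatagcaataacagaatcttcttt
TRAV9D-1, p53 KO, 1 cell: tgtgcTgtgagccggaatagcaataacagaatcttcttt

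String 5 (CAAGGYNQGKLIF, TRAJ23) and string 7 (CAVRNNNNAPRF, TRAJ43) had 2 sequences each within WT, as had string 12 (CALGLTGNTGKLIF, TRAJ37). Of the 15 strings, 11 thus had 2 sequences, just inside the threshold, in 2 to 9 cells. Just outside it were 412 strings with 1 sequence, of which 320 were seen in 1 cell and so could not have shown a second sequence. The other 92 were seen in up to 31 cells, the largest being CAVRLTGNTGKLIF with TRAV7D-3 and TRAJ37 in p53 KO.

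Every alpha CDR3 string that both libraries held was a convergent one. The libraries had 262 and 175 alpha strings, of which 10 were in both, and each of the 10 was written by different DNA in WT and in p53 KO. None of the 450 nucleotide sequences was in both libraries, and so 0 of the 412 other strings were shared. A shared string is convergent by the rule unless the libraries also share its DNA, so the measured part of this is the count of 0 shared nucleotide sequences. Of the remaining 5 strings, 4 were seen in WT alone and the NKT string in p53 KO alone. Convergence was also found inside a library. Within WT, 5 strings had 2 or more sequences, and within p53 KO 3 had, with string 1 in both counts. For 8 strings it appeared only when the libraries were put side by side.

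**Figure D1:**
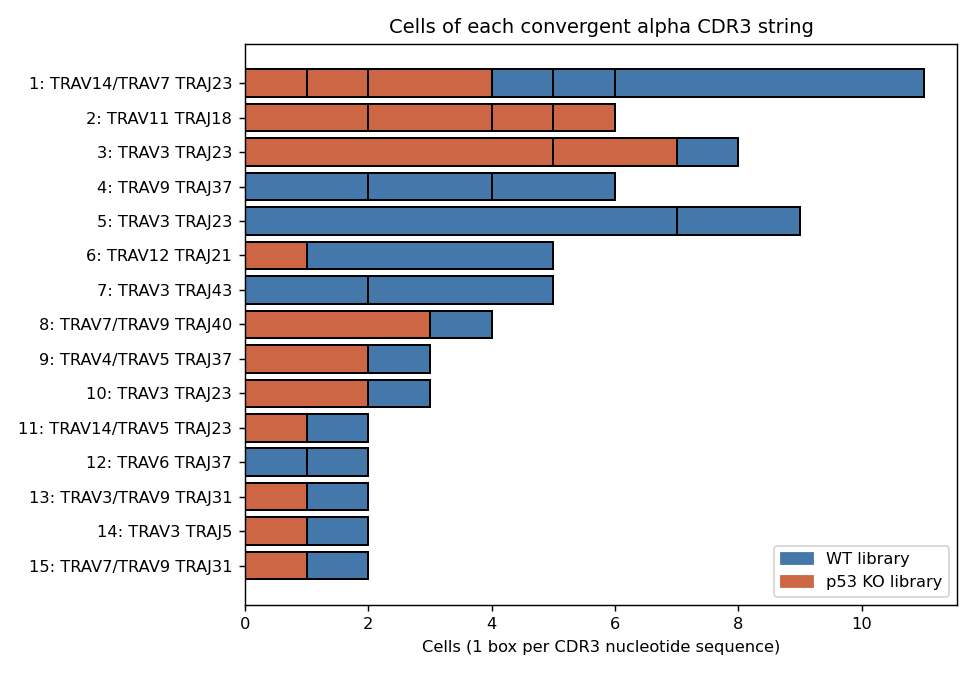
Cells of each convergent string, with 1 box for each CDR3 nucleotide sequence and colour for the library (horizontal axis, number of cells). String 1 has 6 boxes, 3 per library, while strings 11 to 15 are 2 single cells each.

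The cells were spread unevenly over the strings. String 1 was in 7 WT and 4 p53 KO cells, string 3 in 1 and 7, string 5 in 9 and 0, string 2 in 0 and 6, and string 4 in 6 and 0. String 6 was in 4 WT cells and 1 p53 KO cell, and string 7 in 5 WT cells. String 8 was in 1 WT and 3 p53 KO cells, and strings 9 and 10 in 1 and 2 each. The 5 strings numbered 11 to 15 were in 2 cells each. The plot of cells by string shows that most boxes are of 1 or 2 cells and that 1 box holds 7.

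The differing bases lay in the first part of the CDR3. Over the 15 strings 30 positions varied, and all of them fell in the first 5 codons, while the rest of each CDR3 was the same in every sequence of a string. Of the 30 positions, 24 were the third base of a codon (80.0%), 5 the first and 1 the second, as the genetic code allows for changes that keep the amino acid. Codon 5 varied in 9 strings, codon 4 in 8, codons 2 and 3 in 4 each and codon 1 in 1. The varied codons were 26 in all, of which 7 wrote glycine, 6 alanine, 3 arginine and 3 serine.

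**Figure D2:**
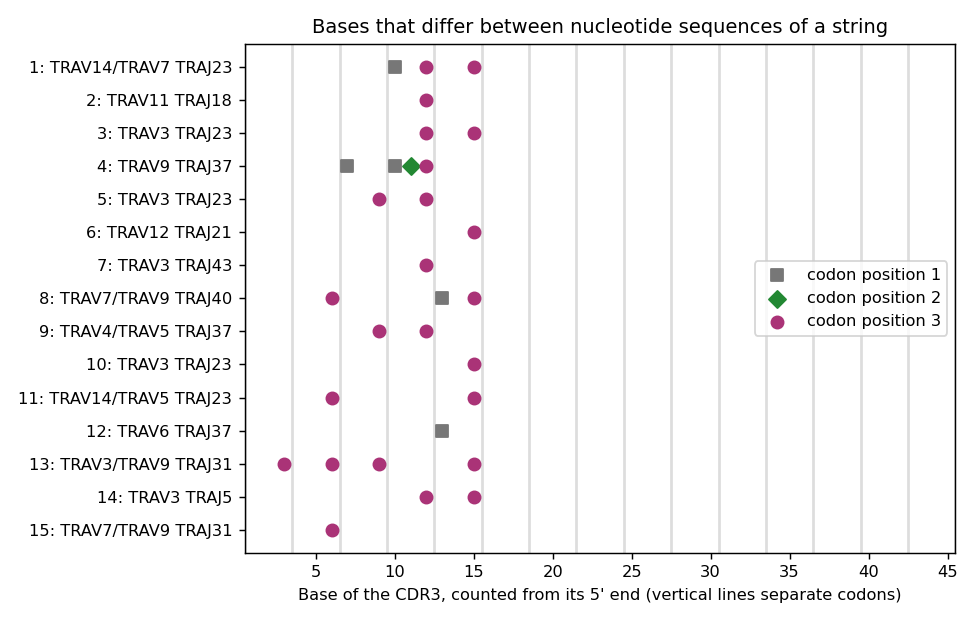
Positions at which the nucleotide sequences of a convergent string differ, counted in bases from the 5′ end of the CDR3 (horizontal axis), with 1 row per string and the marker giving the place in the codon. No marker lies beyond base 15, the end of codon 5.

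Sequences of 1 string usually differed at 1 or 2 bases. Of 38 pairs of sequences of the same string, 20 differed at 1 base, 12 at 2, 4 at 3 and 2 at 4. String 4 shows one of the widest gaps, as its serine codon, the fourth, differed at all 3 bases between one TRAV9-2 chain and the other chains. String 13 also reached 4 differing bases, of which 3 lay in codons 1 to 3, with TRAV3-3 on one side and TRAV9D-1 on the other. Pairs overlap, since 15 of the 38 come from string 1. Of the 20 pairs that differed at 1 base, 19 had a beta chain on both sides, and in 0 of the 19 was a beta nucleotide sequence common to both. Among pairs of sequences from different strings one was common in 81 of 81776, so 0 of 19 is near that share. Requiring 2 or more differing bases left 9 strings, with member shares of 7.80% in WT and 6.33% in p53 KO.

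All pairs shared the J gene, but not the V gene. The V gene was the same in 15 of 38 pairs (in 8 strings), a different gene of the same family in 9 pairs (in 5 strings) and of another family in 14 pairs (in 6 strings). In string 12 they were TRAV6N-7 and TRAV6-6, different members of the TRAV6 family. In string 4 they were TRAV9D-2 and TRAV9-2, which by name are copies in the duplicated blocks. Contigs from near-identical copies could have been given either name, so the counts of same gene and same family are uncertain. Members of different families include string 15, made with TRAV7-6 in WT and TRAV9D-1 in p53 KO, which differed only at the last base of codon 2. String 1 drew on TRAV14-2, TRAV14D-2, TRAV14N-3 and TRAV7D-2. When the sequences had to share the V family and the J gene, 10 strings were left and 5 of them were in both libraries.

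TRAJ23 and TRAV3 genes led the convergent strings. TRAJ23 (Traj23, chromosome 14, 54196081 to 54196140 in GRCm38.p6, the assembly of mm10) was in 5 of 15 convergent strings (33.3%, 11.8 to 61.6) and in 23 of 412 other strings (5.58%, 3.57 to 8.26). These 5 strings, numbered 1, 3, 5, 10 and 11, all end in GYNQGKLIF and hold 33 of the 70 member cells. TRAJ37 (54181518 to 54181577) was in 3 (20.0%, 4.33 to 48.1) and in 29 of 412 (7.04%, 4.76 to 9.95), with overlapping intervals. TRAV3D-3 (Trav3d-3, 52972532 to 52973038) was in 4 convergent strings (26.7%, 7.79 to 55.1) and 13 of 412 others (3.16%, 1.69 to 5.34), and TRAV3-3 (Trav3-3, 53666005 to 53666506) in 3 (20.0%, 4.33 to 48.1) and 9 (2.18%, 1.004 to 4.11). Both are copies of TRAV3, a family that was in 6 of 15 convergent strings (40.0%, 16.3 to 67.7) and 26 of 412 others (6.31%, 4.16 to 9.11). TRAV9 followed, in 4 of 15 convergent strings (26.7%, 7.79 to 55.1) and 36 of 412 others (8.74%, 6.19 to 11.9). TRAV7 was in 3 (20.0%) and 52 (12.6%), TRAV14 in 2 (13.3%) and 52 (12.6%), TRAV5 in 2 and 16, and TRAV6 in 1 and 54. TRAV12 was in 1 and 40, TRAV4 in 1 and 25, and TRAV11 in 1 and 1. Of these families, TRAV3 alone had intervals that lie apart. Since the CDR3 sequences chose the members, this gap is a description only. All 21 V genes and 8 J genes of the members matched the RefSeq annotation by symbol.

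**Figure D3:**
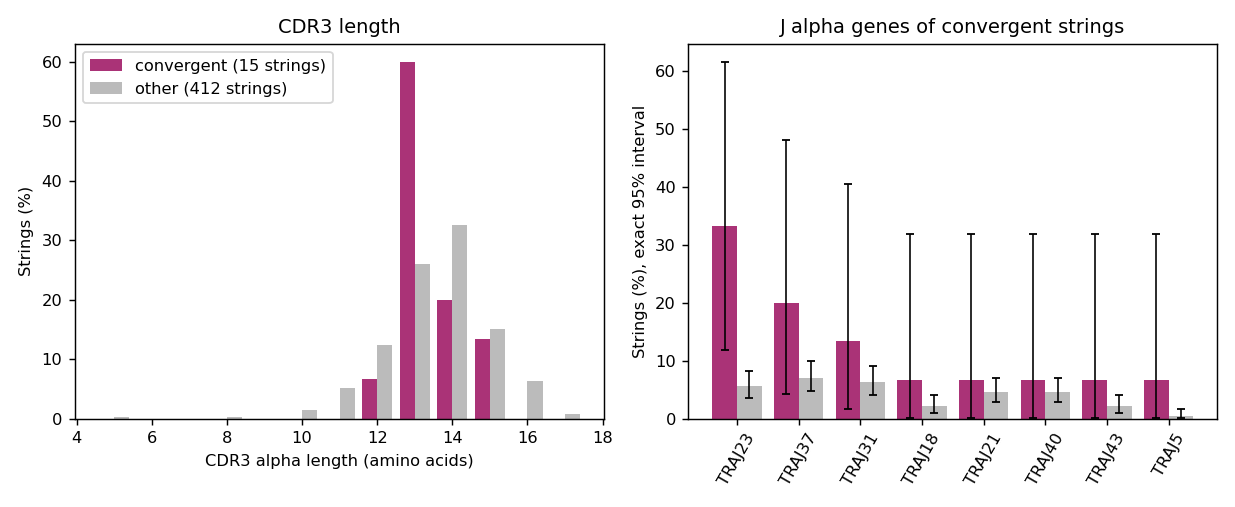
Left, CDR3 alpha length in amino acids against the percentage of convergent or other strings; right, the percentage of strings with each J gene that a convergent string used, with exact 95% intervals. Convergent strings peak at 13 amino acids, and TRAJ23 stands at 33.3% against 5.58%.

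Convergent strings were of middle length, and none was among the shortest or longest. Their CDR3 had 12 to 15 amino acids, with a median of 13 and a mean of 13.4 (SD 0.828 over 15 strings), against 5 to 17, a median of 14 and a mean of 13.5 (SD 1.41 over 412 strings) in the others. A length of 13 was found in 9 of 15 convergent strings (60%) and in 107 of 412 others (26.0%). All 5 convergent TRAJ23 strings, which share their last residues, were of this length. The means differ by less than the spread, and the sets differ mainly in how tightly they gather. The number of nucleotide sequences that could write a string, on the log10 scale, had a median of 6.42 for convergent and 6.85 for other strings. The convergent median was the lower, and since the number is a product over residues it is tied to length.

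Fewer bases of the convergent junctions were left unassigned to V or J. The bases of each CDR3 were matched to the start shared by contigs of the same V gene and to the end shared by contigs of the same J gene, and the rest were counted. The median was 2 bases over 37 convergent sequences and 3 over 407 other combinations of V gene, J gene and sequence. A remainder of 0 to 2 bases was found in 24 of 37 (64.9%) and in 184 of 407 (45.2%). The starts and ends come from these contigs and not from a genome, so genes seen in many contigs are matched further. These contigs include the convergent ones, whose selection for a common amino acid string favours long shared ends. The difference is therefore a description, and no interval was computed for it. In the NKT string the remainder was 0 or 1 base in all 4 sequences.

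The beta chains, which the rule did not use, were often of 1 gene. TRBV13-2, a V gene of the beta chain, was deposited as TRBV13-2 or as TRBV12-2+TRBV13-2, and the 83 contigs of both names carried 1 and the same CDR1 and CDR2 sequence. It was in 16 of the 43 beta nucleotide sequences of member cells (37.2%, 23.0 to 53.3) and in 37 of the 346 of other cells with an alpha chain (10.7%, 7.64 to 14.4), and these intervals lie apart. In WT the counts were 8 of 20 (40.0%, 19.1 to 63.9) and 21 of 194 (10.8%, 6.83 to 16.1). In p53 KO they were 8 of 23 (34.8%, 16.4 to 57.3) and 16 of 152 (10.5%, 6.14 to 16.5). The intervals lie apart in WT and overlap narrowly in p53 KO. TRBV13-2 was picked out after the beta chains had been counted.

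Most of this came from the TRAJ23 strings. Of the 18 beta sequences found with the 5 convergent TRAJ23 strings, 11 used TRBV13-2 (61.1%, 35.7 to 82.7), in 19 of 26 cells with a beta chain. The 23 other TRAJ23 strings had it in 4 of 28 beta sequences (14.3%, 4.03 to 32.7). The convergent strings with another J gene had it in 5 of 25 (20.0%, 6.83 to 40.7), and all remaining strings in 34 of 329 (10.3%, 7.26 to 14.1). The intervals of the convergent and other TRAJ23 strings lie apart, and that of the convergent strings with another J gene overlaps both. Without string 1, the convergent TRAJ23 strings had it in 7 of 11 (63.6%). A further 6 TRAJ23 strings outside the convergent set also end in GYNQGKLIF, and these had TRBV13-2 in 1 of 7 beta sequences (14.3%, 0.361 to 57.9), an interval that overlaps that of the convergent strings. By library, the convergent TRAJ23 strings had TRBV13-2 in 6 of 8 beta sequences in WT (34.9 to 96.8) and 5 of 10 in p53 KO (18.7 to 81.3). The other TRAJ23 strings had it in 2 of 14 in each library (1.78 to 42.8). Within each library these intervals overlap.

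**Figure D4:**
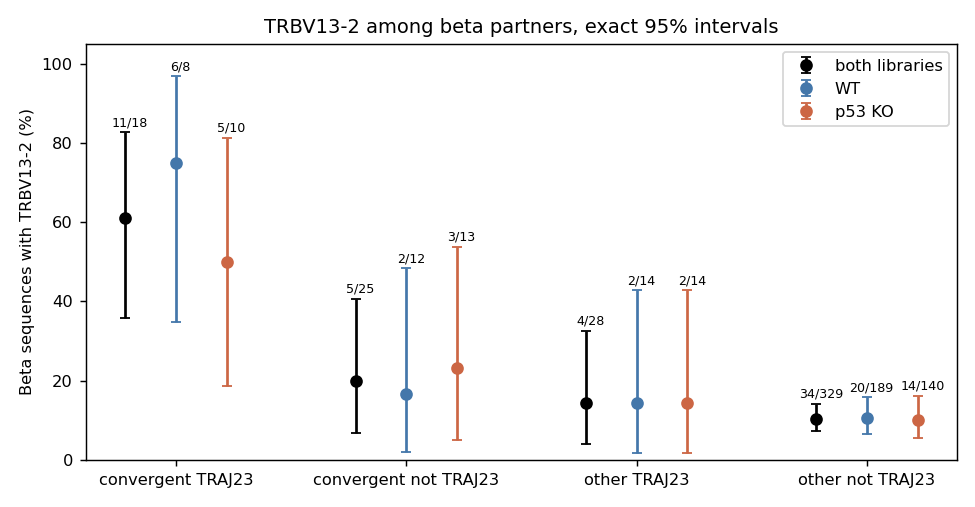
Percentage of distinct beta nucleotide sequences that use TRBV13-2, under either deposited name, in cells of convergent or other alpha strings with or without TRAJ23 (points, with exact 95% intervals and counts above). The convergent TRAJ23 set is highest in both libraries and over both, at 61.1%, and the other 3 sets lie at 10.3% to 20.0%.

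The individual TRAJ23 receptors show this gene with different CDR3 beta sequences. In string 1 the WT TRAV14N-3 sequence was in 5 cells, and the 3 with a beta chain had it with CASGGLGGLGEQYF. It also came with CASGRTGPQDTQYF in another WT cell, and with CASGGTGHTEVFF and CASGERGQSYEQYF in p53 KO. The remaining string 1 cells with a beta chain used TRBV1, TRBV10 or TRBV26. Both cells of string 11, 1 in each library, used it, with CDR3 beta strings that differed at 3 residues. String 10 had it in both libraries as well, in all cells with a beta chain. String 3 differed between its sequences. The WT TRAV3-3 chain and the p53 KO TRAV3-3 chain had TRBV13-2 (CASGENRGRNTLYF in WT), while the p53 KO TRAV3D-3 chain had TRBV1, TRBV14 or TRBV20 in 4 cells.

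Sequences of the same string had different beta chains by DNA wherever both had one. Both sequences had a beta chain in 34 of 38 pairs (in 13 strings), and in 0 of the 34 was a beta nucleotide sequence common to both. Of the 34 pairs, 16 lay within 1 library. Pairs of sequences from different strings had a common beta nucleotide sequence in 81 of 81776, so a count of 0 in 34 is near that share. In 1 pair, string 6, the beta amino acids were the same (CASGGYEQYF). In 14 of the 34 pairs a TRBV gene was common to both, by its deposited name (41.2%, in 8 strings), against 8.53% of 81776 pairs of sequences from different strings. The common gene was TRBV13-2 in strings 1, 3, 6, 10 and 11, and TRBV13-2 or TRBV13-1 in string 2. It was TRBV19 in string 4 and TRBV13-3 in string 7. The share of 41.2% thus largely repeats the TRBV13-2 counts given above. Pairs reuse the same sequences, and 15 of the 34 come from string 1, so these shares are a description with no interval.

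String 4 held the closest beta chains after string 6. Its TRAV9D-2 chain was paired with TRBV19 in 2 WT cells, and 1 of its TRAV9-2 chains with TRBV19 in 1 WT cell. Both the alpha string and the beta V gene were thus the same, and the beta CDR3 differed by 1 residue. A distance of at most 1 amino acid was found in 2 of 34 pairs of the same string (5.88%) and in 111 of 81776 pairs of different strings (0.136%). The 111 include the 81 pairs with a common beta nucleotide sequence, of which the same-string pairs had 0. The shares thus do not count like pairs and are a description. String 7 was also joined to 1 beta gene in both of its sequences, TRBV13-3, with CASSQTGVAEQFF and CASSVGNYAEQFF. The NKT string had 6 beta chains in 6 cells, 2 of them with TRBV13-1 and 2 with TRBV13-2. TRBV29 and TRBV17 made up the rest.

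Among the strings of few cells, strings 8, 9, 12, 13 and 15 had a different beta gene on each side. Strings 10 and 11 had TRBV13-2 on both sides. Of pairs of sequences from different strings, 8.53% had a beta V gene in common. String 8 was joined to TRBV5 and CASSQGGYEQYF in WT and to TRBV13-1 and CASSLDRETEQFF in p53 KO. String 9 had TRBV15 and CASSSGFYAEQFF in WT and TRBV5 and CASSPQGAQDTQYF in p53 KO. In string 12, both of whose cells were WT, the genes were TRBV16 and TRBV3. Strings 13 and 15 ended on TRBV16 in p53 KO, while their WT cells had TRBV13-2 and TRBV15 in string 13 and TRBV17 in string 15. For string 14 a beta chain was found only in the p53 KO cell, which had TRBV29 and TRBV2. This cell and the WT cell of string 13 each held 2 beta chains, so each may be 2 cells in 1 droplet. The TRBV13-2 of that string 13 cell is among those counted above for convergent strings with another J gene. Without such possible multiplets 13 strings were left, 8 of them in both libraries.

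A beta chain was found about as often in member cells as in others. It was present in 57 of 70 member cells (81.4%, 70.3 to 89.7) and in 479 of 589 other cells with an alpha chain (81.3%, 77.9 to 84.4). A second alpha chain was found in 12 of 70 member cells (17.1%, 9.18 to 28.0) and in 58 of 589 others (9.85%, 7.56 to 12.5). In p53 KO it was 8 of 29 (27.6%, 12.7 to 47.2) against 28 of 271 (10.3%, 6.98 to 14.6), with intervals that overlap, and in WT 4 of 41 (9.76%) against 30 of 318 (9.43%). A cell with 2 alpha chains had 2 chances of meeting the rule. Cells with 2 or more beta or 3 or more alpha contigs, which may be 2 cells in 1 droplet, were 3 of 70 members (4.29%) and 33 of 589 others (5.60%).

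Most repeats of an alpha string in these data came from cells with the same DNA. Over all 729 alpha contigs, 279 repeated a nucleotide sequence already counted, and 23 of the 450 nucleotide sequences repeated an amino acid string. Within the 15 convergent strings the numbers were 32 and 23. A convergent string has at least 2 cells by the rule. Of its sequences, 17 of 38 were in 2 or more cells (44.7%, 28.6 to 61.7), against 92 of 412 others (22.3%, 18.4 to 26.7). The largest of them, of string 5, was in 7 WT cells, of which the 6 with a beta chain shared one that uses TRBV13-2, and 1 of them also had TRBV20 with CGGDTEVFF. The 2 cells of the other string 5 sequence had no beta chain. The mean was 1.84 cells per convergent sequence and 1.60 per other sequence. Over sequences in 2 or more cells on both sides, the order of the means turned, with 2.88 for 17 convergent and 3.68 for 92 other sequences, and both medians were 2.

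A string could hold both repeated and single sequences. In string 1, the WT TRAV14N-3 sequence was in 5 cells, the 3 of them with a beta chain sharing one, while its other 5 sequences were in 1 or 2 cells each. Cells with the same alpha DNA could also carry different beta chains. Among convergent sequences in 2 or more cells with a beta chain this was so for 4 of 13 (30.8%, 9.09 to 61.4), and among others for 14 of 75 (18.7%, 10.6 to 29.3), with overlapping intervals. The TRAV3D-3 sequence of string 3 is an example, with 3 beta chains in 4 p53 KO cells.

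Over both libraries together, support by UMIs was like that of other alpha chains. The median was 4 UMIs per contig for 70 member contigs and for 659 others. In WT it was 6 for members and 5 for others, and in p53 KO 3 and 4. The means were 6.71 for members and 5.54 for others in WT, and 3.07 and 4.60 in p53 KO. Contigs with 1 UMI were 7 of 70 (10.0%) and 63 of 659 (9.56%). The 7 WT cells of string 1 had 1, 1, 2, 4, 6, 8 and 10 UMIs and its 4 p53 KO cells had 2, 2, 3 and 4. The 6 cells of the NKT string had 1, 1, 2, 2, 3 and 3, the lowest median of any string with more than 2 cells. The 9 cells of string 5 had 2, 4, 4, 5, 7, 7, 10, 13 and 18. String 3 had 15 in its WT cell and 1, 1, 3, 4, 4, 4 and 6 in p53 KO, and string 6 had 3, 8, 10 and 12 in WT and 6 in p53 KO. The TRAJ23 strings thus include both weakly and strongly supported chains. With 2 or more UMIs required, 14 of the 15 strings were found, as string 15 rests on 1 WT cell with 1 UMI. Strings 1 and 2 each have a sequence that also rests on 1 UMI per cell. In the NKT string it is the sequence with C, seen in 2 cells. In string 1 it is the WT TRAV7D-2 sequence with T as the last base of codon 5, seen in 1 cell.

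**Figure D5:**
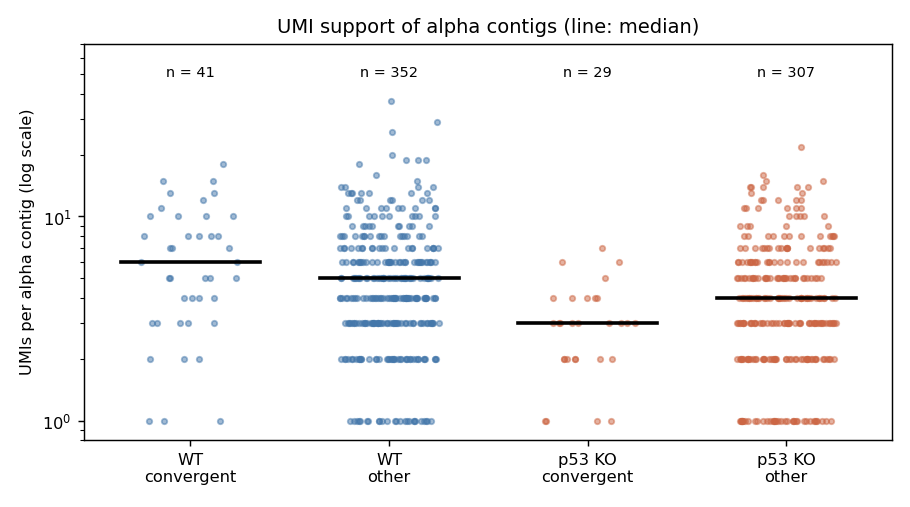
UMIs per alpha contig on a log scale, with 1 point per contig and a line at the median, for convergent and other chains of each library. The medians are 6 and 5 in WT and 3 and 4 in p53 KO. Convergent chains reach 18 UMIs in WT and 7 in p53 KO, while the other chains, which are more numerous, reach 37 and 22.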

How the data were processed

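The authors deposited, for each TCR library, the annotated contigs of called cells. Reads and UMIs per contig are whole-number counts as deposited, with no normalization, per the file headers. Cell Ranger 6.1.1 and the mm10 build are named in the submitters' processing notes. For the TCR reference behind the V and J names, a version is not given in the sources. Every alpha contig entered, 729 in all, and contigs of both libraries were pooled before the rule was applied. The members, gene lists and comparisons were chosen with earlier results of these data known. All strings were named, since there were no more than 25, and genes were named when in 3 or more convergent strings. The V families and the beta gene TRBV13-2 were added with their values in view. Gene positions are from RefSeq. Sets were compared by strings, by distinct nucleotide sequences or by cells, as each sentence says, and no test was run. No doublet caller was run. Alternatives were a minimum of 2 UMIs, 1 alpha contig per cell, no possible multiplets, a shared V family and J gene, 2 differing bases, cells with both chains, and no NKT chains. Comparisons with other strings in 2 or more cells, and of sequences in 2 or more cells on both sides, were added after seeing the data. The rule was tested on simulated strings. Software: scipy 1.17.1 for intervals, pandas 2.3.3 with numpy 2.4.6 for tables, and matplotlib 3.10.9, all in Python 3.11.15.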

Additional observations from a re-analysis of the deposited data

Results flagged for a closer look

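In 3 comparisons of convergent with other alpha chains the libraries pointed opposite ways, and with 1 library per genotype none of these differences was tested. The share of cells with a beta chain, convergent minus other, was -1.75 percentage points in WT and 3.68 in p53 KO. The mean number of cells per nucleotide sequence was higher by 0.533 in WT and differed by -0.166 in p53 KO, where other chains reach 31 cells. The median of UMIs per alpha contig was higher by 1 in WT and differed by -1 in p53 KO.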

How the results depend on the processing

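Of 99 values recomputed under alternatives, 88 kept their direction or stayed within their interval or within 1.5 times the count. Requiring 2 or more differing bases gave 9 convergent strings and member shares of 7.80% in WT and 6.33% in p53 KO, as fewer strings can pass. Requiring a shared V family and J gene left 5 strings in both libraries. The share of cells with a beta chain, convergent minus other, was 0.104 percentage points and turned to -0.445 with 2 or more UMIs, -1.84 with 1 alpha contig per cell, -2.61 with a shared V family and J gene, -5.10 with 2 or more differing bases and -1.67 without NKT chains. Cells per nucleotide sequence, convergent minus other, was 0.243, and 0.0205 in cells with both chains. It was -0.802 when sequences on both sides had to be in 2 or more cells. With that limit on the other strings alone it was -1.84, a sign that the one-sided limit fixes, so it carries no information. The difference in median UMIs moved from 0 to -1 with 2 or more UMIs and with other strings in 2 or more cells, at the edge of its interval of -1 to 1. The excess of TRBV13-2 among beta partners, 26.5 points, ranged from 25.1 to 31.95. Within TRAJ23 strings it was 46.8 points and ranged from 36.3 to 54.2 when both sides met the same limit. With other strings in 2 or more cells it was 61.1, as the share in those other TRAJ23 strings was 0%. The number of cells limits all of these, with 18 beta sequences behind the TRAJ23 value. No paired analysis was possible because each genotype has 1 library.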
